A study of Mus musculus with 2 samples.

Results

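Alcohol, aldehyde, aldo-keto, retinol and short-chain dehydrogenases are the enzymes with which the liver moves electrons between alcohols, aldehydes, ketones and acids. The members described here are the genes whose symbols begin with Adh, Aldh, Akr, Rdh or Dhrs followed by a digit, with Akr1d1, Akr1c6, Aldh4a1 and Aldh6a1 set aside. They number 63 of the 24421 genes in the count tables. The rule used names only and no measured value, although the members were chosen with earlier results of these data known.

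The samples were livers of male C57BL/6 mice that were 6 weeks old when a high-fat diet began and that stayed on it for 12 weeks. 1 library came from RORα f/f mice, which carry floxed alleles of Rora and no Cre, and is called the control library. The other came from RORα f/f:Alb-Cre mice, in which the albumin promoter drives Cre in hepatocytes, and liver cells without active Cre keep the floxed gene. It is labelled as the liver-specific knockout (LKO). Both libraries thus share the floxed alleles and the diet, and no library of chow-fed mice or of Cre without the floxed alleles was analysed here. By its title, the series asks which genes change with RORα, a nuclear receptor, during non-alcoholic steatohepatitis.

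Each genotype is 1 library, so no difference below has a replicate check or a test. The tables sum to 128201591 counts in the control and 131843686 in the LKO-labelled library. Levels are CPM, counts per 1000000 reads, with library sizes corrected by TMM (a trimmed mean of M-values), which sets the bulk of genes to a ratio of 1. Each ratio divides the library labelled LKO by the control library. The exact 95% interval after it holds counting error and no difference between animals. A gene was measured when its mean level reached 1 CPM and its summed count 20, which held for 11137 genes. Rora had 3701 counts in the control and 3677 in the LKO-labelled library, or 33.4 and 24.1 CPM, 1.38-fold lower. Its log2 ratio was −0.47, and −0.05 with total-count scaling, so the size of this difference rests on the scaling. Its total count includes exons outside the deleted part, so it checks the genotype only in part, and directions are stated for the library as labelled. All 10 hepatocyte markers examined were measured, with a summed level of 164622 CPM in the control and 121611 CPM in the LKO-labelled library. As a share of all counts this was 14.2% and 14.1%. Most of the sum came from Alb (117952 and 91007 CPM) and Serpina1a (29122 and 16718 CPM), so it says little of the other markers. On the TMM scale 3 of the 10 markers lay at least 1.5-fold below the control, beside 9.76% of all measured genes. With total-count scaling 1 lay below and 1 above, beside 2.53% and 34.6% of all measured genes. Of 9 measured macrophage markers 6 lay that far below on the TMM scale and 1 with total-count scaling. Their levels summed to 121 and 76.6 CPM, while Gpnmb was 3.96-fold higher. The part of either list in the members' values was not tested. Of 4 intestinal markers, Alpi had no counts, Vil1 had 0 and 8, Fabp2 stood at 5.06 and 6.01 CPM and Lgals4 at 5.09 and 9.17 CPM, a ratio of 1.80. In bulk liver, fewer cells of a type and less RNA per cell cannot be told apart.

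Ethanol and retinol are handled by the same kinds of enzyme. An alcohol is oxidised to an aldehyde by cytosolic alcohol dehydrogenases (ADH) or microsomal retinol dehydrogenases (RDH), and the aldehyde is oxidised to an acid by aldehyde dehydrogenases (ALDH). Aldo-keto reductases (AKR) and many DHRS enzymes mostly work in the other direction and reduce aldehydes, ketones and steroids. In hepatocytes these reactions clear ethanol, the aldehydes that arise from lipid peroxidation and lipid breakdown, and retinaldehyde on its way to retinoic acid.

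Most members were close to equal in both libraries, and a few stood out on either side. Of the 63 members, 45 were measured, 12 more had some counts and 6 had none. Among the 45, 3 were at least 1.5-fold higher with an interval that left out 1, namely Rdh16, Aldh3a2 and Dhrs7b. Over all measured genes that share was 10.5%, against 6.67% of the members. On the lower side stood 6 members, Aldh18a1, Rdh13, Adh4, Akr1c19, Akr1c20 and Aldh1b1, which is 13.3% of those measured beside 9.76% of all measured genes. At 2-fold, 2 members were higher and 1 was lower, while 3.83% of all measured genes were higher and 2.62% lower. The members' median log2 ratio was −0.06 and that of all measured genes 0.00, so the list as a whole lay near the bulk of genes. Within 1.2-fold lay 23 of the 45, and 80% of the members lay within 1.5-fold, as did 79.7% of all measured genes. The quartiles of the log2 ratio were −0.32 and 0.21 for the measured members and −0.28 and 0.29 for all measured genes.

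The scaling decides part of this count. Scaling by total count would raise every log2 ratio by 0.42. It would leave 12 members at least 1.5-fold higher and 1 lower, beside 34.6% and 2.53% of all measured genes. Rdh16, Aldh3a2, Dhrs7b and Aldh18a1 keep their calls on that scale. The log2 ratios of the other lower members, Adh4, Akr1c19, Akr1c20, Aldh1b1 and Rdh13, become −0.33, −0.32, −0.31, −0.32 and −0.48. Of the 26 measured members with a log2 ratio below 0, 16 would turn positive.

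**Figure D1:**
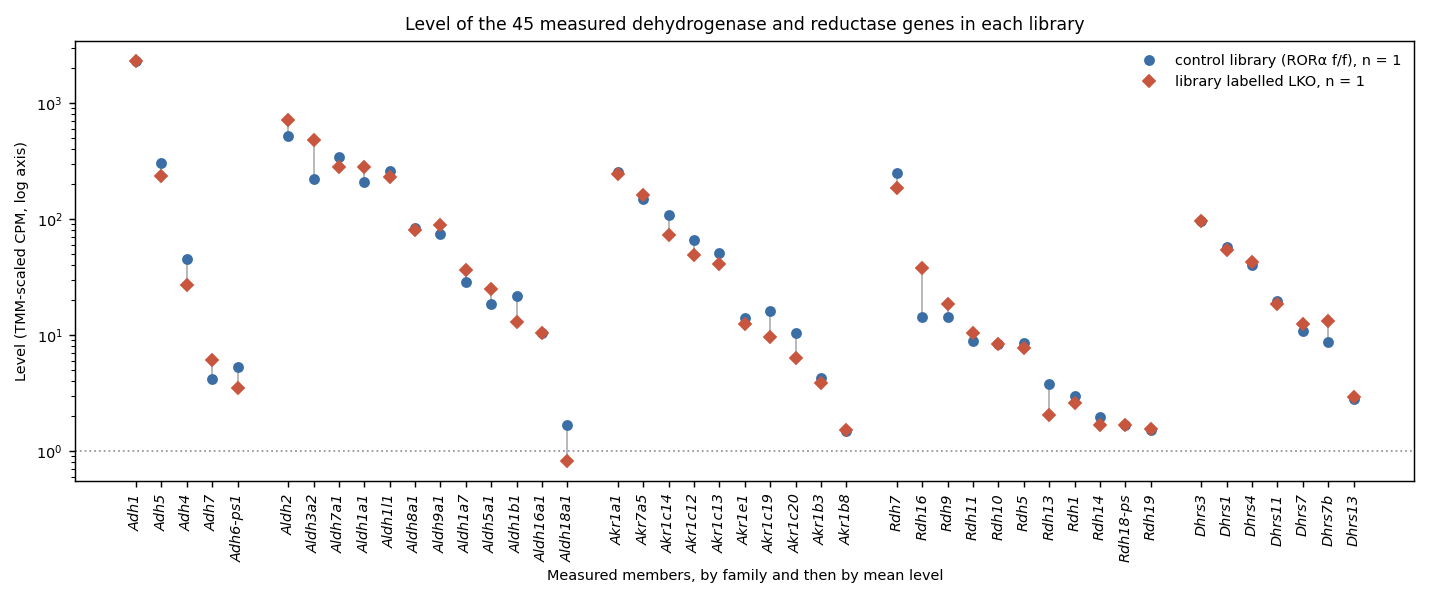
Level of each of the 45 measured members in TMM-scaled CPM on a log axis, with circles for the control library and diamonds for the library labelled LKO, 1 library each. Adh1 stands far above the rest at 2284 and 2313 CPM, and the pairs that are pulled furthest apart are those of Rdh16, Aldh3a2, Aldh18a1 and Rdh13.

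The upstream sequences of 4 members are shown as examples. They include the 2 members past 1.5-fold that held the letters AGGTCA, of 7 such members with an upstream sequence. Aldh3a2, also past 1.5-fold, held none and is not shown. The share with a match among the 4 therefore does not describe the members. Rdh16 had the highest ratio of all measured members, Rdh9 is its closest copy in the count tables, Rdh7 is their most abundant neighbour, and Adh4 was among the lower members. RORα binds as a monomer to the core AGGTCA when it follows a stretch rich in A and T. Each sequence runs 5′ to 3′ on the gene's strand towards the RefSeq start, from the RefSeq table for GRCm38.p6, the assembly of mm10. It ends before the first base that a GENCODE exon covers. Capitals mark AGGTCA or its complement TGACCT. In order, the sequences lie at chr10:127800903-127801151 (plus strand), chr10:127776155-127776385 (plus), chr10:127888818-127888983 (minus) and chr3:138415247-138415465 (plus).
Rdh16: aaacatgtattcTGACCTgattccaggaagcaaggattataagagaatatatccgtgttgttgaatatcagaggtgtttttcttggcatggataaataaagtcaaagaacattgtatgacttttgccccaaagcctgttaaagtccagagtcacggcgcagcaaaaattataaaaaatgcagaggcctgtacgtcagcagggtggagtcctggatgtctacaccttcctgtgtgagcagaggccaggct
Rdh9: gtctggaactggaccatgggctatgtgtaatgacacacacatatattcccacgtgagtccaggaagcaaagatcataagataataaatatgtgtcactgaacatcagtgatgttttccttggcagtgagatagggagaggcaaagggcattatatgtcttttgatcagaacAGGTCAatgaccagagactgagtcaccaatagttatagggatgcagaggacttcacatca
Rdh7: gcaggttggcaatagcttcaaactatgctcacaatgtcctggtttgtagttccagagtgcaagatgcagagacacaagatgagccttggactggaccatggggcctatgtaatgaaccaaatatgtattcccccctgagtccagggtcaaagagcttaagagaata
Adh4: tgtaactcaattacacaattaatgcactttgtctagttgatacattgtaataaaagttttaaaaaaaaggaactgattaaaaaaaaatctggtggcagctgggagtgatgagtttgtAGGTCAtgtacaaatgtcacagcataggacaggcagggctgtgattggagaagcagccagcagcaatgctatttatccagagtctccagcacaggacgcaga

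In these windows the match begins 238 bases before the start in Rdh16 (on the opposite strand), 79 in Rdh9 and 133 in Adh4. Adh4 has a further match 11 bases before the start, in the part left out of the sequence shown. The Rdh7 sequence holds none. AGGTCA was searched on both strands in the 250 bases before the first listed start of each gene, and 13.8% of 27025 genes held it. Of the 63 members, 49 were in the table and 10 held it. It was found for 6 of the 36 measured members among them (Adh4, Akr7a5, Aldh1l1, Rdh7, Rdh9 and Rdh16). The first listed start of Rdh7, which was searched, lies upstream of the one whose sequence is shown. A match at the second listed start of Rdh11 was not counted. The longer TAGGTCA, which overlaps it, was found in 2.27% of all genes and, among measured members, in Adh4 alone. TGGGTCA was found in 3.21% of all genes and in no member. Of the 9 members past 1.5-fold in either direction, 7 had an upstream sequence and 2 of these, Rdh16 and Adh4, held AGGTCA. A match describes the letters only, and both directions of difference occur among the genes that hold one.

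The alcohol dehydrogenases lie together on chromosome 3, and their most abundant member was nearly level. Adh1, the class I enzyme that oxidises ethanol and retinol (chromosome 3, 138260991 to 138290698, plus strand, GRCm38 as for all positions here), had 253216 counts in the control and 352683 in the LKO-labelled library. That is 2284 and 2313 CPM, a ratio of 1.01 (interval 1.01 to 1.02). Per kilobase of its longest coding transcript it stood at 1531 and 1550 CPM, which is 50.2% of the summed level per length of all members in both libraries. Adh5, the glutathione-dependent formaldehyde dehydrogenase, was second per length in the control library at 191 CPM per kilobase. Its level was 306 CPM in the control and 237 CPM in the LKO-labelled library, 1.29-fold lower (interval 1.27 to 1.31). Adh4, the class II enzyme for medium-chain alcohols and retinol, stood at 45.5 and 27.0 CPM and was 1.69-fold lower (interval 1.62 to 1.76). It lies next to Adh5, from 138415466 to 138430892 on the plus strand. After removal of a trend of the ratios with transcript length and GC content, its log2 ratio moved from −0.75 to −0.50, short of 1.5-fold. Adh7, the class IV retinol-active enzyme best known from the stomach, was low at 4.17 and 6.08 CPM, with a ratio of 1.46 (interval 1.30 to 1.63). Its exons overlap the antisense gene 0610031O16Rik (216 and 352 counts), from which its reads cannot be separated. The pseudogene Adh6-ps1 stood at 5.27 and 3.52 CPM, just short of 1.5-fold, and Adh6a had no counts. Within 1 cluster of 238 kb, the measured genes thus ran from a log2 ratio of −0.75 to one of 0.54.

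Among aldehyde dehydrogenases, Aldh3a2 stood apart. It encodes the microsomal fatty aldehyde dehydrogenase, which turns long-chain fatty aldehydes into fatty acids. Its 24695 counts in the control and 73486 in the LKO-labelled library gave 223 and 482 CPM, 2.16-fold higher (interval 2.13 to 2.19). Per length it had rank 9 of the members in the control and rank 4 in the LKO-labelled library. The gene lies on chromosome 11 from 61223417 to 61267464 on the minus strand, and none of its 50-base words occurs in another annotated transcript. Its neighbour Aldh3a1, the cytosolic enzyme of the cornea and stomach, had 32 counts in the control and 0 in the LKO-labelled library. Set against a floor of 3 counts it was 14.7-fold lower, and the exact interval reaches down to 11.3-fold, from a level of 0.289 CPM that was not measured by the rule.

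Several abundant aldehyde dehydrogenases were higher by less than 1.5-fold. Aldh2, the mitochondrial enzyme that clears acetaldehyde, stood at 522 CPM in the control and 712 CPM in the LKO-labelled library, a ratio of 1.36 (interval 1.35 to 1.38). Aldh1a1, a cytosolic enzyme that makes retinoic acid from retinaldehyde, stood at 210 and 279 CPM, a ratio of 1.32 (interval 1.30 to 1.35). Aldh1a7, a close copy of Aldh1a1 on chromosome 19, stood at 28.6 and 36.1 CPM. The 2 copies share 6.54% and 7.49% of their 50-base words, so their split is uncertain, and their summed counts gave a ratio of 1.32 (interval 1.30 to 1.34). Aldh5a1, the succinic semialdehyde dehydrogenase, was at 18.6 and 24.95 CPM, and Aldh9a1, an enzyme of carnitine synthesis, at 74.2 and 88.8 CPM. In all, 6 of the 12 measured Aldh genes had a ratio above 1, as did 5540 of all 11137 measured genes. With total-count scaling 10 of the 12 did, on a scale where the median log2 ratio of all measured genes was 0.42.

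Other aldehyde dehydrogenases were level or lower. Aldh1b1, a mitochondrial enzyme related to Aldh2 with which it shares acetaldehyde as a substrate, went the other way from it. The gene is on the plus strand of chromosome 4 (45799022 to 45804604). It stood at 21.7 CPM in the control and 12.99 CPM in the LKO-labelled library, 1.67-fold lower (interval 1.57 to 1.77). Aldh18a1 (chromosome 19, 40550257 to 40588463, minus strand), which makes the precursor of proline from glutamate, had only 186 and 126 counts, or 1.68 and 0.826 CPM, and was 2.03-fold lower (interval 1.61 to 2.57). It was the only measured member under 1 CPM in either library. The lysine-breakdown enzyme Aldh7a1 stood at 341 and 281 CPM, and Aldh1l1, which oxidises formyltetrahydrofolate, at 257 and 230 CPM. Aldh8a1, of tryptophan breakdown, at 84.3 and 80.9 CPM, and Aldh16a1, at 10.5 and 10.4 CPM, were nearly equal. The exons of Aldh16a1, Aldh7a1 and Aldh5a1 overlap genes on the other strand, and as strand use is not given, their reads cannot be separated from those partners.

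Aldh1a2 and Aldh1a3, which also make retinoic acid, were almost absent from both libraries. Aldh1a2 had 8 counts and 0, and Aldh1a3 had 22 and 15. Aldh3b1, Aldh3b2, Aldh3b3 and Aldh1l2 were also too low to be measured. Of these Aldh3b3 had 3 counts in the control and 46 in the LKO-labelled library, a ratio of 11.1 whose interval ran from 3.58 to 56.0. Aldh3b3 and Aldh3b2 share sequence, with 23.5% of the words of Aldh3b2 found in Aldh3b3.

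**Figure D2:**
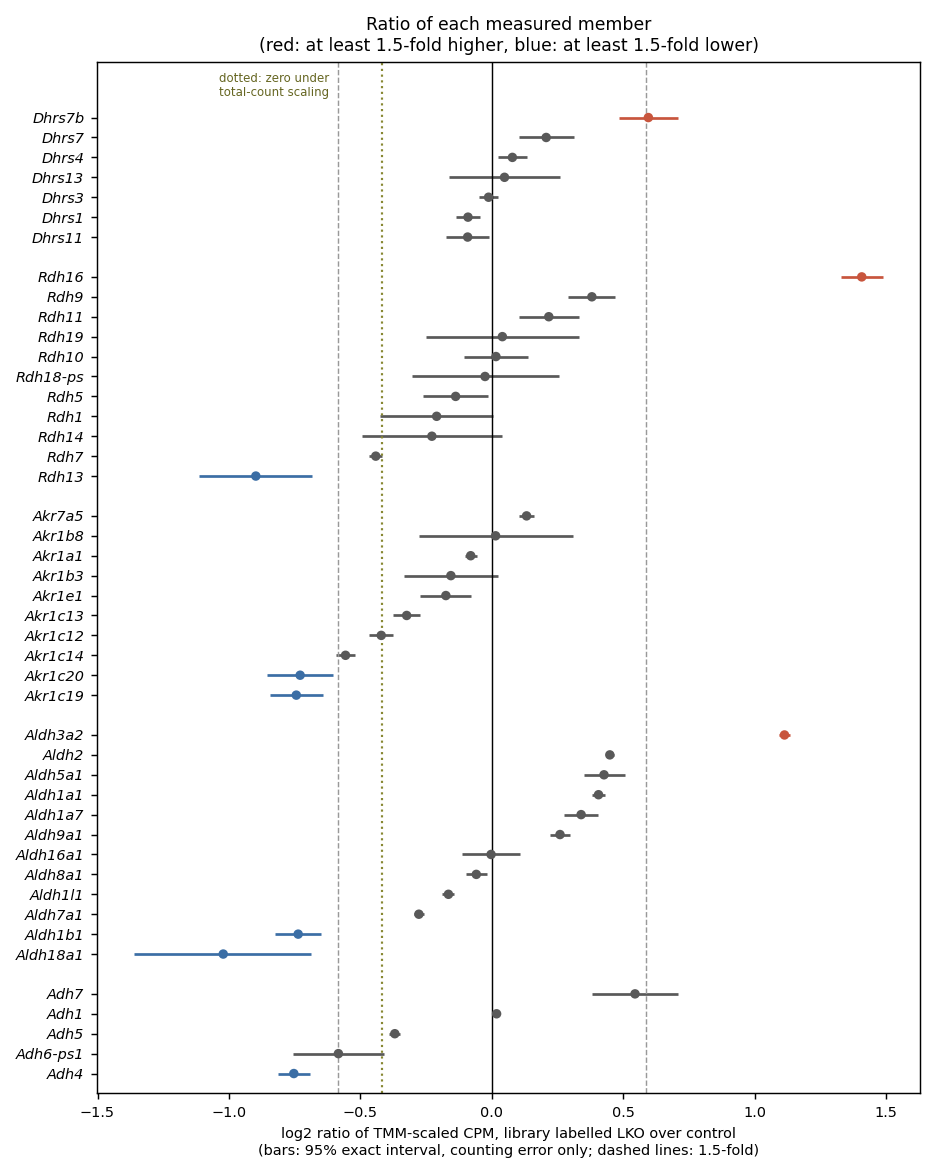
log2 ratio of TMM-scaled CPM, library labelled LKO over control, for the 45 measured members by family, with bars for the 95% exact interval and dashed lines at 1.5-fold. Rdh16, Aldh3a2 and Dhrs7b lie beyond the right dashed line and 6 members beyond the left one, and the dotted line marks where zero would lie under total-count scaling.

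The retinol dehydrogenases showed the widest contrast, between neighbours of 1 cluster. Rdh16, a microsomal enzyme that oxidises retinol and steroid alcohols (chromosome 10, 127801152 to 127846565, plus strand), had 1597 counts in the control and 5826 in the LKO-labelled library. This is 14.4 and 38.2 CPM, 2.65-fold higher (interval 2.51 to 2.805). Rdh7, a microsomal relative and by far the most abundant Rdh gene, stood at 249 and 184 CPM, 1.36-fold lower (interval 1.34 to 1.38). Per length, Rdh7 made up 84.3% of the summed Rdh level in the control and 75.5% in the LKO-labelled library. Rdh9 stood at 14.3 and 18.6 CPM, a ratio of 1.30 (interval 1.22 to 1.39). These 3 genes lie with Rdh1, Rdh19 and the pseudogene Rdh18-ps within 129 kb of chromosome 10. Rdh1, Rdh19 and Rdh18-ps were low, between 1.52 and 3.004 CPM, and their intervals held 1. The summed counts of all 6 gave 284 CPM in the control and 246 CPM in the LKO-labelled library, 1.15-fold lower (interval 1.14 to 1.17), so the cluster total and Rdh16 differ in direction. With total-count scaling the cluster total would lie above 1.

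Copies limit how sharply these neighbours can be told apart. Of the 50-base words of the Rdh16 transcript, 12.4% occur in Rdh9 and 15.1% in some other annotated gene, and Rdh16 also shares 381 bases of exon with Rdh18-ps. Nearly all of Rdh9, 92.3% of its words, is found elsewhere, chiefly in the overlapping model Rdh16f1, for which no count was used here. Taken as 1 unit, Rdh9 and Rdh16 stood at 28.7 CPM in the control and 56.8 CPM in the LKO-labelled library, a ratio of 1.98 (interval 1.90 to 2.06).

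Rdh genes elsewhere in the genome were low and mostly level. Rdh13, a mitochondrial retinal reductase (chromosome 7, 4424770 to 4445649, minus strand), stood at 3.82 CPM in the control and 2.05 CPM in the LKO-labelled library, 1.86-fold lower (interval 1.61 to 2.16). Rdh10, the enzyme that starts retinoic acid synthesis in the embryo, stood at 8.32 and 8.41 CPM. Rdh11, a retinal reductase, stood at 8.99 and 10.4 CPM, and Rdh14 at 1.97 and 1.68 CPM. Rdh5 stood at 8.54 and 7.76 CPM, and 17.3% of its words also occur in the overlapping gene Bloc1s1. The photoreceptor genes Rdh8 and Rdh12 had no counts.

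**Figure D3:**
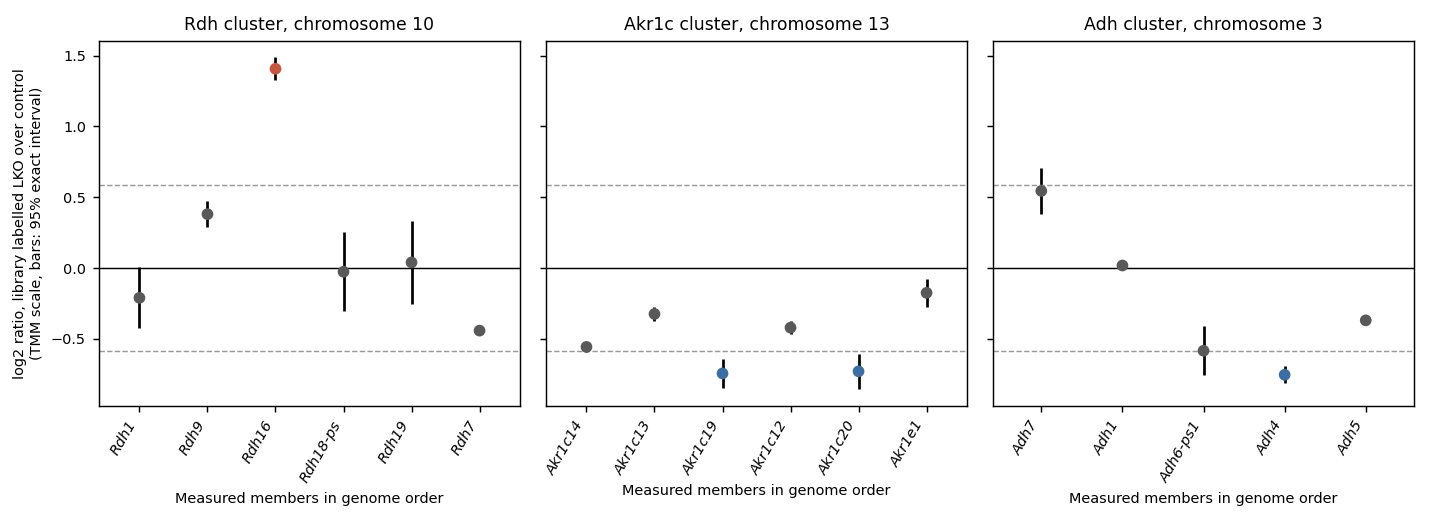
log2 ratio with its 95% exact interval for measured members in genome order within the Rdh, Akr1c and Adh clusters. Rdh16 is the 1 gene above the upper dashed line (1.5-fold), all measured genes of the Akr1c cluster lie below 0 on this scale, and the Adh cluster spans both sides.

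Aldo-keto reductases leaned to the lower side on the TMM scale. Of 10 measured Akr genes 8 had a ratio below 1, as did 50.3% of all measured genes, although with total-count scaling 6 of the 10 would lie above 1. The Akr median log2 ratio was −0.25, and 0.17 with total counts, beside −0.003 and 0.42 over all measured genes. After removal of the trend with length and GC content it was −0.09. That left 1 Akr gene at least 1.5-fold lower, beside 7.76% of all measured genes. All 6 measured genes of the chromosome 13 cluster, 5 Akr1c genes and Akr1e1, were among the 8. Akr1c genes encode hydroxysteroid dehydrogenases that also reduce xenobiotic ketones. Akr1c19 stood at 16.2 CPM in the control and 9.68 CPM in the LKO-labelled library, 1.67-fold lower (interval 1.56 to 1.80). Akr1c20 stood at 10.4 and 6.30 CPM, 1.66-fold lower (interval 1.52 to 1.81), but its log2 ratio of −0.73 became −0.40 after removal of that trend. Akr1c19 lies from 4228700 to 4252843 on the plus strand and Akr1c20 from 4486849 to 4523345 on the minus strand. An exon of Akr1c19 overlaps the pseudogene Marcksl1-ps4 over 291 bases on the same strand. That pseudogene had 711 and 1210 counts, beside 1797 and 1476 for Akr1c19, and reads of the shared bases cannot be separated.

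The more abundant Akr1c genes were lower by less than 1.5-fold. Akr1c14, which reduces dihydrotestosterone, stood at 108 and 73.1 CPM, 1.47-fold lower (interval 1.43 to 1.51). Akr1c12 stood at 66.2 and 49.4 CPM, and Akr1c13 at 50.8 and 40.6 CPM. These 2 are close copies that share 28.6% of their words, and summed they were 1.30-fold lower (interval 1.27 to 1.33). After removal of the length and GC trend little of this was left, with log2 ratios of −0.11 for Akr1c12 and −0.02 for Akr1c13. Akr1c18, the progesterone-inactivating 20α-hydroxysteroid dehydrogenase, had 18 counts in the control and 0 in the LKO-labelled library, 8.25-fold lower against a floor of 3 counts, with an exact interval that reaches down to 6.05-fold. All 7 Akr1c members together stood at 251 and 179 CPM, 1.40-fold lower (interval 1.38 to 1.43), and with total-count scaling their sum would lie within 1.1-fold of equal.

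The remaining Akr genes were close to level or low. Akr1a1, the general aldehyde reductase that mice also use to make ascorbate, stood at 256 CPM in the control and 243 CPM in the LKO-labelled library, 1.06-fold lower (interval 1.04 to 1.07). Akr7a5, a mitochondrial and cytosolic reductase of aflatoxin aldehyde and succinic semialdehyde, stood at 148 and 162 CPM, a ratio of 1.10 (interval 1.07 to 1.12). These were the highest of the Akr genes per length, at 181 and 115 CPM per kilobase in the control library. Akr1e1, at the end of the chromosome 13 cluster, stood at 14.1 and 12.5 CPM. The aldose reductase gene Akr1b3 stood at 4.27 and 3.83 CPM, a value that is uncertain because 59.9% of its words occur in other genes, mostly the processed copy Gm6644. Akr1b8 stood at 1.51 and 1.52 CPM, while Akr1b10, Akr1b7 and Akr1c21 had at most 118 counts and Akr1cl none.

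Among the member families, genes of the DHRS group were the most even on the TMM scale. Of 7 measured, 6 lay within 1.2-fold, a share that was not computed over all measured genes. The quartiles of the log2 ratio were −0.05 and 0.14 for these genes and −0.28 and 0.29 for all measured genes. With total-count scaling all 7 lay above 1, with a median of 0.47 beside 0.42 over all measured genes. Dhrs3, the retinaldehyde reductase that opposes Rdh10, stood at 96.5 CPM in the control and 95.7 CPM in the LKO-labelled library, a ratio of 0.991 (interval 0.967 to 1.02). Dhrs1 stood at 57.7 and 54.2 CPM, and Dhrs4, a peroxisomal carbonyl and retinal reductase, at 40.6 and 42.8 CPM. Dhrs11 was at 19.6 and 18.4 CPM, Dhrs7 at 10.9 and 12.6 CPM and Dhrs13 at 2.84 and 2.94 CPM. The exception was Dhrs7b, the peroxisomal reductase of acyl-dihydroxyacetone phosphate in ether lipid synthesis (chromosome 11, 60830631 to 60860195, plus strand). It stood at 8.75 and 13.2 CPM, 1.51-fold higher (interval 1.40 to 1.63), and with upper-quartile scaling its log2 ratio of 0.58 fell just short of 1.5-fold. Dhrs9 had 46 and 49 counts, and Dhrs2 and Dhrs7c had none.

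Genes that bind, store, break down and sense retinoids also lay on both sides. Of 15 measured genes outside the member list, 2 lay at least 1.5-fold above the control and 1 below it. That is 13.3% and 6.67%, beside 10.5% and 9.76% of all measured genes. The list's median log2 ratio was 0.05, and 0.47 with total-count scaling, beside −0.003 and 0.42 over all measured genes. The lower one was Cyp26a1, which degrades retinoic acid and is induced by it, and which stood at 2.995 and 0.977 CPM, 3.07-fold lower (interval 2.52 to 3.74). Retsat, which saturates retinol, was 1.80-fold higher (interval 1.76 to 1.83) at 132 and 237 CPM, and the receptor gene Rxrg 1.68-fold higher (interval 1.53 to 1.85). The secreted carriers Ttr and Rbp4 were the most abundant of the list and had ratios of 0.794 and 0.936. Stellate cells store most of the liver's retinol. All 14 stellate cell and fibroblast markers were measured and none is at 0. Of these, 7 lay at least 1.5-fold above the control and 0 below, beside 10.5% of all measured genes above. The count was 4 after removal of the length and GC trend, beside 9.76% of all measured genes, and 10 with total-count scaling, beside 34.6%. Their summed level was 221 CPM in the control and 310.1 CPM in the LKO-labelled library, of which Dcn alone made up 158 and 210 CPM. On the TMM scale 11 of the 14 had a ratio above 1, the highest being Col1a1 at 6.48. The 3 below 1 were Lrat (0.884), which is also on the retinoid list, Rgs5 (0.676) and Acta2 (0.905). The part of these markers in the values of the retinoid genes was not tested.

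Other enzymes for alcohols, aldehydes and carbonyls mostly lay within 1.5-fold, apart from those that activate short acids. Of 15 measured, 2 lay at least 1.5-fold above the control and 0 below it, which is 13.3% and 0% beside 10.5% and 9.76% of all measured genes. Their median log2 ratio was −0.14, and 0.28 with total-count scaling, beside −0.003 and 0.42 over all measured genes. The higher ones were Acss3 and Acss2, which join acetate and other short acids to coenzyme A, at 3.47-fold (interval 3.20 to 3.77) and 1.75-fold (interval 1.71 to 1.80). Cyp2e1, the microsomal ethanol oxidase and the most abundant of the list, had a ratio of 1.45, and catalase (Cat) 1.08. The lowest ratios were those of the glyoxalase genes Glo1 and Hagh, 0.725 and 0.734, and of the carbonyl reductase gene Dcxr, 0.744.

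Position in the liver lobule is a known axis of variation for this class of enzyme, and genes of both zones differed between the libraries. Of 14 measured periportal genes 8 lay at least 1.5-fold below the control and 0 above it. Over all measured genes, 9.76% were lower by that much. The list's median log2 ratio was −0.67. With total-count scaling 3 were lower, beside 2.53% of all measured genes, and 4 of the 14 had a ratio above 1. The list's median was then −0.25, beside 0.42 over all measured genes. The summed level of the periportal genes was 13102 CPM in the control and 9747 CPM in the LKO-labelled library. Of 15 pericentral genes 4 lay at least 1.5-fold above the control and 2 below, beside 10.5% and 9.76% of all measured genes. The summed levels were 9220 and 12691 CPM, of which Cyp2e1, itself short of 1.5-fold, made up 7209 and 10482 CPM. With total-count scaling 8 of the 15 lay at least 1.5-fold above and 0 below, beside 34.6% and 2.53% of all measured genes. The higher genes included Glul at 2.20-fold and Rhbg at 2.31-fold, and the lower ones were Cyp1a2 and Ang. Whether zonation has a part in the differences between members was not tested.

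**Figure D4:**
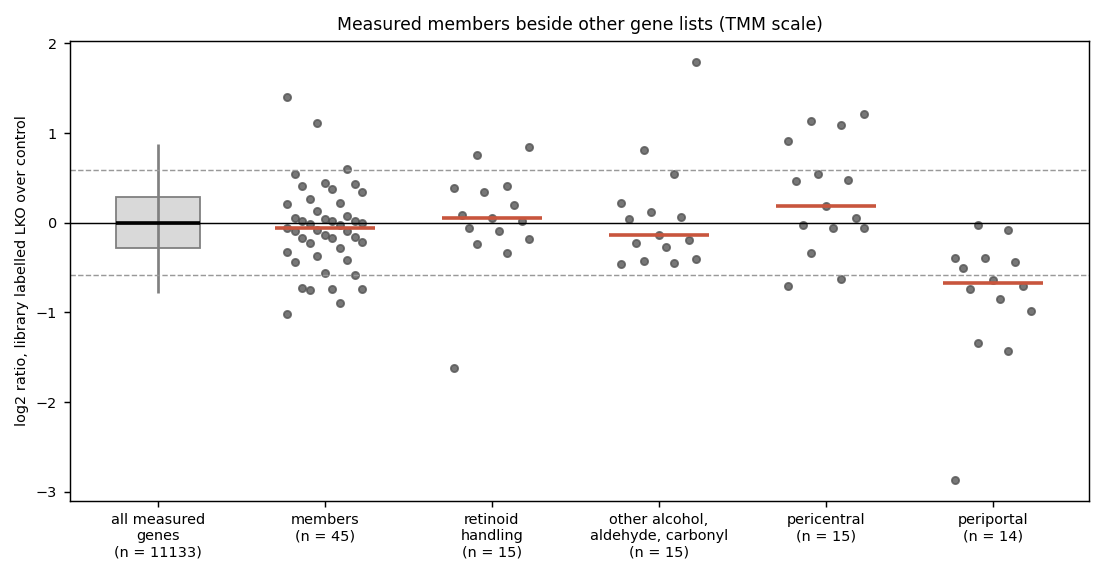
log2 ratio of single measured genes (points) with the list median (bar) for the members and 4 other lists, beside all measured genes that have counts in both libraries (box from the lower to the upper quartile, whiskers from the 5th to the 95th percentile). The members centre on −0.06 like the bulk of genes, while the periportal list centres on −0.67.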

How the data were processed

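Each of the 2 libraries has a table, deposited by the authors, of raw counts (whole numbers, not normalized) against gene symbols. Per the labels' protocols, Trizol RNA (500 ng) entered a LEXOGEN mRNA-Seq kit. Per the submitters' processing notes, TopHat, edgeR and build mm10 were used. The counter, annotation, strand use, treatment of reads with several alignments and the number of animals per library were not given in the sources used here. Reads of copies and overlapping genes cannot be separated.

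TMM factors came from edgeR 4.0.16 in R 4.3.3, and were 0.865 and 1.16. Ratios of CPM carry 95% Clopper-Pearson intervals conditional on the summed count (SciPy 1.17.1). Without molecular identifiers, PCR copies may count as separate reads. Intervals and floors (3 counts) hold counting error only. Measured members had a median summed count of 4975 and at least 312. The procedure was tested on simulated data.

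The text names each measured member with a mean of at least 10 CPM or a 1.5-fold difference. Others are given because every member is accounted for, and of other lists up to 3 highest, 3 lowest and 2 most abundant genes. 1 gene of the retinoid list is not reported here and was left out of its counts. Members and lists were chosen with earlier results of these data known. Gene positions, transcripts, lengths and 50-base words are from GENCODE M21 (GRCm38), which held all 63 members, and upstream sequences from RefSeq. Levels per length use the longest coding transcript. Alternatives were other scalings (DESeq2 1.42.0 among them), filters, added counts, thresholds and a length and GC trend (lowess, fraction 0.3, statsmodels 0.14.6), the last chosen after seeing the data.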

Additional observations from a re-analysis of the deposited data

How the results depend on the processing

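The split into 3 higher and 6 lower members was the same with median-of-ratios scaling, with 0.5 or 5 counts added and with a stricter interval. With total-count scaling it became 12 and 1, beside 34.6% and 2.53% of all measured genes. The members' median log2 ratio was then 0.36, beside 0.42 over all measured genes. With totals that omit the 20 most abundant genes the split was 4 and 6, beside 16.4% and 7.43%. The members' median was then 0.050, beside 0.12 over all measured genes. Upper-quartile scaling gave 2 and 7, beside 10% and 10.2%. With no filter 4 of 57 members were higher and 10 lower, beside 13.5% and 11.9% of all genes with counts. At a mean of at least 10 CPM 3 of 30 were lower, beside 9.03% of all such genes. At 2-fold 1 was lower, beside 2.62%, and at 3-fold 0 were higher and 0 lower, beside 1.53% and 0.871%. Removal of the length and GC trend gave 4 higher and 4 lower, beside 9.76% and 7.76%, and a median of −0.015. Adh4 and Akr1c20 were then no longer past 1.5-fold. No called member changed sign under any scaling, added count or the trend. Beyond the scaling's own construction, the cause was not tested. No paired analysis was possible because each group has 1 library.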
